A study of Mus musculus with 12 samples.

Results

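The CoREST complex is a corepressor that removes active marks from histones. Its catalytic core joins the demethylase LSD1, encoded by Kdm1a, to a scaffold protein of the CoREST family (Rcor1, Rcor2 or Rcor3) and to the histone deacetylases HDAC1 and HDAC2. LSD1 takes methyl groups off lysine 4 of histone H3, the scaffold couples it to nucleosomes and to the deacetylase, and DNA-binding repressors such as REST bring the complex to their target genes. In embryonic stem (ES) cells LSD1 is known for switching off enhancers of the pluripotency programme as the cells differentiate. The 9 genes described here were chosen by name as subunits of this complex: Kdm1a, Rcor1, Rcor2, Rcor3, Hdac1, Hdac2, the HMG-box protein gene Hmg20b, the PHD finger gene Phf21a (BHC80), which encodes a reader of unmethylated H3K4, and Gse1, which encodes a coiled-coil protein found with LSD1 and HDAC1 in purified complexes. All 9 were among the 17901 genes of the count table, and all 9 were among the 15750 genes that passed the filter on low values and were tested.

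RNA was sequenced from TT2 cells, a line of mouse ES cells, in 4 groups of 3 libraries: double knockout (DKO) cells, without Rlf and Zfp292, after retinoic acid (RA), wild-type (WT) cells after RA, DKO cells in serum/LIF and WT cells in serum/LIF. RA cultures had 72 hours of 5 µM RA in ES medium from which LIF, the cytokine that holds ES cells undifferentiated, was left out, so the RA comparisons carry both changes. Serum/LIF medium held knockout serum replacement, a little FBS and LIF. Rlf and Zfp292 encode zinc finger proteins, and the title of the series links them to bivalent genes and CoREST. The labels name 3 biological replicates but give no clone, so it is not known here whether the DKO libraries stem from 1 clone.

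The libraries held 30869766 to 40236799 reads in genes. Reads of the targeted genes matched the labels. Summed over 3 libraries, Rlf had 1 read in DKO and 8426 in WT after RA, and 6 in DKO and 10999 in WT in serum/LIF, while Zfp292 had 0 in both DKO groups, against 10237 in WT after RA and 14965 in WT in serum/LIF. Replicate 2 of WT after RA stood apart in the repeat table, where rRNA took 41.7% of its repeat reads, against 4.14% to 7.28% in the other libraries. It also stood apart in the gene reads. There, chi-square per degree of freedom was 10.5 against replicate 1 and 14.9 against replicate 3 of its group. It was 5.19 between replicates 1 and 3 of that group, and 3.28 to 8.29 between replicates of the other groups. The 8 ES cell markers summed to 10899 to 11605 normalized counts in DKO and 5582 to 6031 in WT after RA, and to 116538 to 118880 in DKO and 128770 to 133289 in WT in serum/LIF. All 8 were called higher in DKO after RA, and 0 higher and 5 lower in serum/LIF. For this and the other marker lists, all genes had 22.0% called higher and 20.7% lower in DKO after RA. In serum/LIF these shares were 17.8% and 15.4%. The 10 fibroblast markers summed to 63848 to 66494 in DKO and 50239 to 51867 in WT after RA, and to 22347 to 23654 in DKO and 7496 to 7551 in WT in serum/LIF. Of these 10, 5 were called higher in DKO after RA (Col1a1, Col3a1, Acta2, Tagln and Postn), while the other 5 were not called and had lower means in DKO (Col1a2, Thy1, Lum, Dcn and Pdgfrb), and 8 were called higher in serum/LIF. The 8 neural markers summed to 12755 to 12968 in DKO and 15576 to 15917 in WT after RA, and to 13517 to 14298 in DKO and 10548 to 11230 in WT in serum/LIF. Of the 7 tested, 6 were called lower in DKO after RA, and Nes, the most abundant, was called higher (9099 ± 56.0 in DKO and 6933 ± 215 in WT), while in serum/LIF 4 were called higher and Pax6 lower. The 7 endoderm markers summed to 2784 to 3043 in DKO and 2092 to 2352 in WT after RA, and to 368 to 400 in DKO and 197 to 271 in WT in serum/LIF. After RA, 4 of the 7 were called higher in DKO (Gata4, Sox17, Foxa2 and Dab2) and 3 were not called, of which Gata6 and Ttr had lower means in DKO, and in serum/LIF 2 were called higher. Ttr was at 0 in both serum/LIF groups and Neurog2 at 0 in DKO in serum/LIF. Marker RNA of several cell types thus differed between the groups. In DKO against WT, called neural markers went both ways, while all called fibroblast and endoderm markers were higher. Some uncalled members of the fibroblast and endoderm lists had lower means in DKO after RA. The part of these markers in the differences below was not tested, and in bulk RNA fewer cells of a type and less RNA per cell cannot be told apart.

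Levels are given in normalized counts, the authors' reads divided by a size factor of each library. A difference was called where limma, fitted across all genes on log2(value + 1), gave a Benjamini-Hochberg adjusted p under 0.05. Log2 fold changes carry the standard error of that fit, with 3 libraries per group, and each mean is followed by its SD over 3 libraries.

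The members differed in where they moved. After RA, 2 of the 9 were higher in DKO than in WT (Gse1 and Phf21a), 2 were lower (Rcor1 and Rcor2) and 5 were not called, beside 42.7% of all genes called, 22.0% higher and 20.7% lower. In serum/LIF, 0 were higher, 3 were lower (Kdm1a, Rcor1 and Rcor2) and 6 were not called, beside 33.2% of all genes called, 17.8% higher and 15.4% lower. With the authors' size factors, RA changed all 9 in both genotypes, 5 higher and 4 lower. Of all genes, 78.3% were called in DKO (40.2% higher and 38.2% lower) and 80.6% in WT (41.4% higher and 39.2% lower). With values scaled to library totals, 7 members were called in DKO (5 higher and 2 lower) and 9 in WT. With quantile normalization, 8 were called in each genotype (5 higher and 3 lower), and the direction of Kdm1a turned in DKO. The genotype counts lie near the share of all genes called, and neither they nor the RA counts are a result about the members as a set. The genotype effect itself differed between RA and serum/LIF for Gse1 and Phf21a and was not called for the other 7 (30.8% of all genes called, 14.8% higher and 16.0% lower). The median log2 change of the 9 was 0.01 in DKO against WT after RA and −0.07 in serum/LIF, beside medians of 0.01 and −0.01 over all genes. In the authors' deposited table, the same comparisons had 2 members higher and 2 lower after RA, and 0 higher and 3 lower in serum/LIF.

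**Figure D1:**
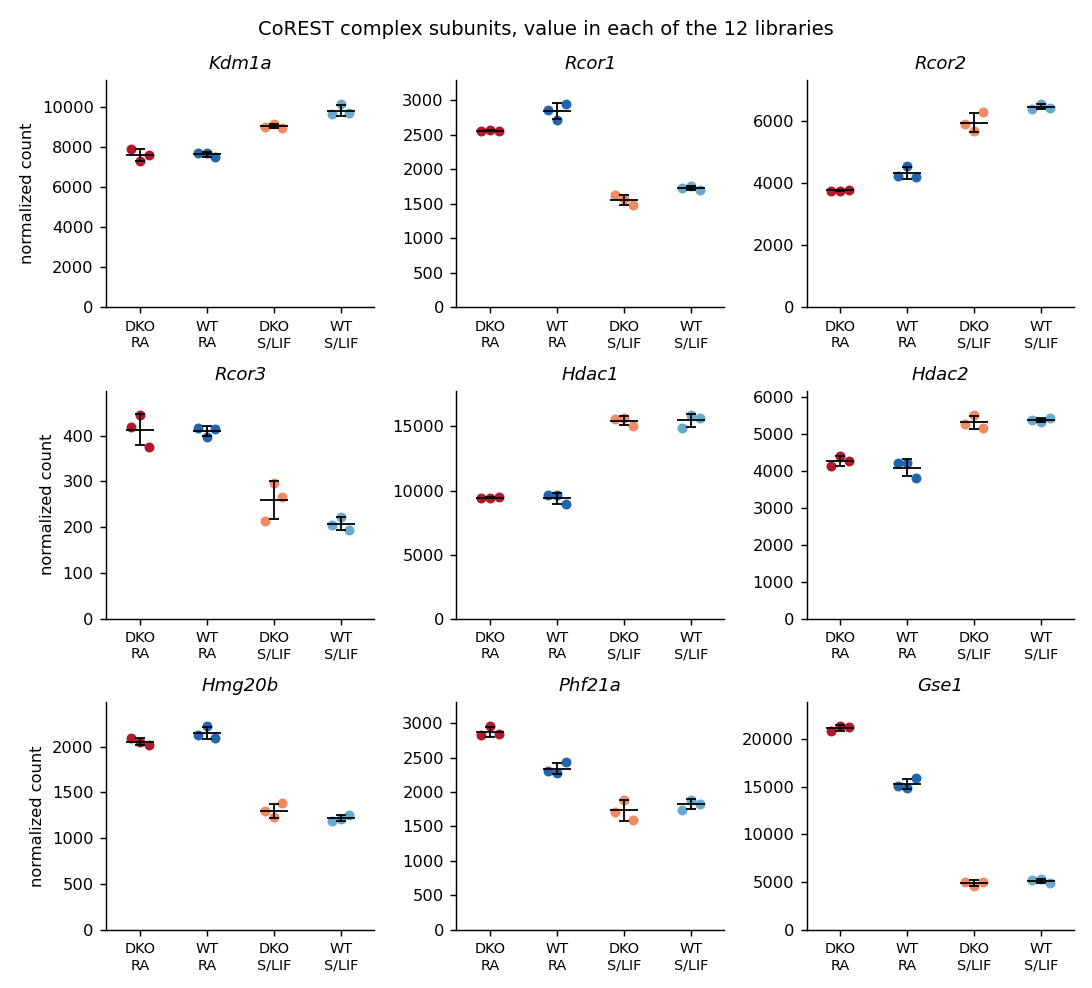
Normalized counts of the 9 CoREST subunits (vertical axes, linear from 0) in DKO after RA, WT after RA, DKO in serum/LIF and WT in serum/LIF (S/LIF). Points are the 3 libraries of a group, long dashes the mean and bars the SD. Gse1 and Phf21a stand higher in DKO than in WT after RA, at 21140 and 15273 for Gse1, while Hdac1 and Hdac2 overlap between the genotypes.

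The stretches before the transcription start of 4 members are shown because, with the authors' size factors, these genes went opposite ways under RA. Gse1 and Rcor1 were higher, and Kdm1a and Rcor2 lower, where the decrease of Kdm1a depends on the scaling, as given below. The sequences are the 250 bases before the start in RefSeq (GRCm38.p6, the assembly of mm10), in the direction of the gene. For Gse1, Kdm1a and Rcor1 the stretch ends next to the start of the transcript that the count table lists, and for Rcor2 it lies before another start of the gene, upstream of the listed one. Capitals mark the letters GGGCGG (the core of an SP1 GC box), CCAAT (the NFY box) and AGGTCA (the hexamer bound by RA receptors and other nuclear receptors), or their reverse complements.
Gse1, chr8:120537159-120537408, plus strand: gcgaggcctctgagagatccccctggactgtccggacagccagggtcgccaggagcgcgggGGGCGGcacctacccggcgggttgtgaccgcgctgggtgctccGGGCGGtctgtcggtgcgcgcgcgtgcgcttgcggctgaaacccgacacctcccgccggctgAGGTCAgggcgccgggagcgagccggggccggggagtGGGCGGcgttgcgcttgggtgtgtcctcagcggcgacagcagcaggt
Rcor1, chr12:111039117-111039366, plus strand: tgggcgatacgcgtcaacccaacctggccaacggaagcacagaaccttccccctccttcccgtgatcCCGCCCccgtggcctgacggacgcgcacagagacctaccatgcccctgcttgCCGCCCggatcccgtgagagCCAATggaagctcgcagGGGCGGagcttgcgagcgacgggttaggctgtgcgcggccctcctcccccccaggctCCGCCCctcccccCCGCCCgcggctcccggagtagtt
Kdm1a, chr4:136602724-136602973, minus strand: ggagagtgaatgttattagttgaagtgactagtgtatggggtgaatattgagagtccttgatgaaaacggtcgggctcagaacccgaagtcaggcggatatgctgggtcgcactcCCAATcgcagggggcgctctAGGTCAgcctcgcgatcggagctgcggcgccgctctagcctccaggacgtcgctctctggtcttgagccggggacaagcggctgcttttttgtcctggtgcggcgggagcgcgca
Rcor2, chr19:7267144-7267393, plus strand: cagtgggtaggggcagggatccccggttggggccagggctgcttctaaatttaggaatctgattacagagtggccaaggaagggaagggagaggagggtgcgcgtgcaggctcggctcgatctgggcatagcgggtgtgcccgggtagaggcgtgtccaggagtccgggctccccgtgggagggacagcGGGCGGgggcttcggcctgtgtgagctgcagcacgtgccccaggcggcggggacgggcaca

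AGGTCA occurred 1 time in the Gse1 stretch and 1 time in that of Kdm1a, genes that went opposite ways under RA, and 0 times in those of Rcor1 and Rcor2. On either strand, 14.0% of 32851 mouse promoter stretches of that length held it. GGGCGG was found 3 times on the gene's strand before Gse1, 1 time on it and 4 times on the other strand before Rcor1, 1 time before Rcor2 and 0 times before Kdm1a, and 32.7% of all stretches held at least 1. CCAAT was found 1 time each before Kdm1a and Rcor1, with 33.8% of all stretches holding it. The GC content was 74.8% before Gse1, 70.4% before Rcor1, 59.2% before Kdm1a and 67.6% before Rcor2, against a median of 52.4%. A match is a description of the letters, not of binding.

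Kdm1a, the demethylase, was slightly lower in DKO in serum/LIF, and the genotypes overlapped after RA. Its listed transcript lies at chr4:136550533-136602723 on the minus strand (mm10, as for the other members). The libraries had 7904, 7317 and 7595 normalized counts in DKO and 7709, 7709 and 7487 in WT after RA. In serum/LIF they had 9019, 9157 and 8941 in DKO, against 9625, 10139 and 9698 in WT. The serum/LIF groups did not overlap, and 43.9% of all genes were separated in that comparison. The log2 fold change of DKO over WT was −0.12 ± 0.04 in serum/LIF (adjusted p = 0.016) and −0.0062 ± 0.04 after RA (adjusted p = 0.912, 95% interval −0.08 to 0.07). Without replicate 2 of WT in serum/LIF, the highest library, the serum/LIF call was lost (−0.10, adjusted p = 0.0975), and it was also lost with quantile normalization (−0.08, adjusted p = 0.114). The difference between the genotype effects after RA and in serum/LIF was 0.11 ± 0.05 (adjusted p = 0.111), so Kdm1a was not shown to respond to genotype differently in the 2 conditions.

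Under RA, Kdm1a fell by 0.25 ± 0.04 on the log2 scale in DKO (adjusted p = 1.75e-06) and by 0.36 ± 0.04 in WT (adjusted p = 3.47e-09), with RA and serum/LIF libraries apart in both genotypes. These decreases depend on the scaling. With values scaled to library totals, the change was −0.02 in DKO (adjusted p = 0.712) and −0.10 in WT (adjusted p = 0.0154), and with quantile normalization it was 0.02 in DKO and −0.04 in WT, neither called. Scaling to library totals moved the median change of all genes to 0.27 in DKO and 0.29 in WT, against 0.04 in both with the authors' size factors. Relative to those medians, Kdm1a stood at −0.28 in DKO and −0.40 in WT with size factors and with library totals alike. That likeness was bound to arise, since a change of size factor moves all genes and their median nearly together. With quantile normalization, Kdm1a stood at 0.04 in DKO and −0.0003 in WT relative to the median. RA and serum/LIF libraries were apart for all 9 members in both genotypes, beside 80.3% of all genes in DKO and 81.5% in WT.

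The scaffolds Rcor1 and Rcor2 were lower in DKO than in WT in both conditions, at 0.870 to 0.922 times the WT mean, while RA moved the 2 genes in opposite directions. Rcor1 encodes CoREST1, the form best known from purified LSD1 complexes, and lies at chr12:111039367-111115902 on the plus strand. It had 2555, 2575 and 2550 normalized counts in DKO and 2860, 2711 and 2943 in WT after RA, and 1621, 1569 and 1484 in DKO and 1730, 1759 and 1699 in WT in serum/LIF. All DKO libraries lay below all WT libraries of their condition, beside 54.5% of all genes separated after RA and 43.9% in serum/LIF. The log2 fold change of DKO over WT was −0.15 ± 0.05 after RA (adjusted p = 0.0196) and −0.15 ± 0.05 in serum/LIF (adjusted p = 0.0217).

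Those Rcor1 calls rest on few libraries. In serum/LIF the call was lost without replicate 3 of DKO (adjusted p = 0.1) and without replicate 2 of WT (adjusted p = 0.0738). After RA it was lost in 4 of the 12 fits that left out 1 library (adjusted p between 0.053 and 0.0845 without replicate 1 or 3 of DKO or replicate 1 or 3 of WT after RA). Under RA, Rcor1 rose in both genotypes, at 1.64 times its serum/LIF mean in DKO and in WT (log2 0.72 ± 0.05 and 0.71 ± 0.05, adjusted p = 2.65e-12 and 2.48e-12).

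Rcor2 encodes the CoREST paralogue that is known to be abundant in ES cells and neural progenitors, and lies at chr19:7268279-7275225 on the plus strand. It had 3757, 3731 and 3790 normalized counts in DKO and 4222, 4536 and 4200 in WT after RA, with the groups apart. In serum/LIF it had 5879, 5674 and 6271 in DKO, against 6380, 6533 and 6418 in WT, also apart, with the highest DKO library close to the lowest WT library. Of all genes, 54.5% were apart after RA and 43.9% in serum/LIF. The log2 fold change of DKO over WT was −0.20 ± 0.04 after RA (adjusted p = 0.000564) and −0.12 ± 0.04 in serum/LIF (adjusted p = 0.0364). The serum/LIF call was lost in 9 of 24 alternatives, with adjusted p up to 0.161, and the call after RA was lost in 0 of 24. Under RA, Rcor2 fell to 0.633 times its serum/LIF mean in DKO and to 0.670 times in WT (log2 −0.66 ± 0.04 and −0.58 ± 0.04, adjusted p = 7.09e-13 and 7.73e-12). The size of this decrease depends on the scaling: with library totals it was −0.42 in DKO and −0.32 in WT, and with quantile normalization −0.51 in DKO and −0.36 in WT, all called.

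Rcor3, the third paralogue, at chr1:192098546-192138040 on the minus strand, was the least abundant member, with 187 to 484 reads per library. It had 419, 444 and 376 normalized counts in DKO and 417, 397 and 415 in WT after RA, which overlap. In serum/LIF it had 214, 296 and 266 in DKO, against 205, 222 and 194 in WT, with 1 DKO library inside the WT range. Its log2 fold change of DKO over WT was 0.31 ± 0.12 in serum/LIF (adjusted p = 0.0507), which missed the threshold and passed it in 8 of 24 alternatives, with an adjusted p of 0.0456 in edgeR and 0.0432 in DESeq2. After RA it was 0.0081 ± 0.12 (adjusted p = 0.966, 95% interval −0.24 to 0.26). RA raised Rcor3 by 0.68 ± 0.12 in DKO (adjusted p = 1.68e-05) and 0.98 ± 0.12 in WT (adjusted p = 6.43e-08), and with quantile normalization by 0.41 in DKO and 0.66 in WT, both called. Its exons overlap those of the antisense genes Gm10516 and Gm26879 by up to 170 and 667 bases, and since the strand setting of the counting is not given, reads from those stretches cannot be told apart.

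The RNA shares of the scaffold genes shifted under RA in both genotypes, and protein was not measured here. Per kilobase of exon, where levels of different genes can be set side by side, Rcor2 made 71.2% ± 0.359 of the summed Rcor1, Rcor2 and Rcor3 level in DKO and 72.1% ± 1.65 in WT after RA, against 86.5% ± 0.986 in DKO and 86.5% ± 0.163 in WT in serum/LIF. Rcor1 made 26.9% ± 0.206 in DKO and 26.3% ± 1.58 in WT after RA, against 12.6% ± 0.963 in DKO and 12.9% ± 0.135 in WT in serum/LIF. Rcor3 stayed the minor form, at 1.82% in DKO and 1.59% in WT after RA, and 0.875% in DKO and 0.644% in WT in serum/LIF. RA and serum/LIF libraries did not overlap in the Rcor2 or Rcor1 share, and DKO and WT overlapped in these shares in both conditions. The Rcor3 share was higher in every DKO library than in every WT library of its condition, although the Rcor3 counts overlapped between genotypes in both conditions. After RA the Rcor3 shares nearly touched, at 1.646% in the lowest DKO library and 1.636% in the highest WT library. These shares do not depend on the size factors but do on the length chosen: per kilobase of the longest transcript Rcor3 made 5.76% in DKO and 5.06% in WT after RA, and Rcor2 made 70.4% and 71.6%. No test was run on the shares, since 3 against 3 libraries cannot give an exact permutation p below 0.1.

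**Figure D2:**
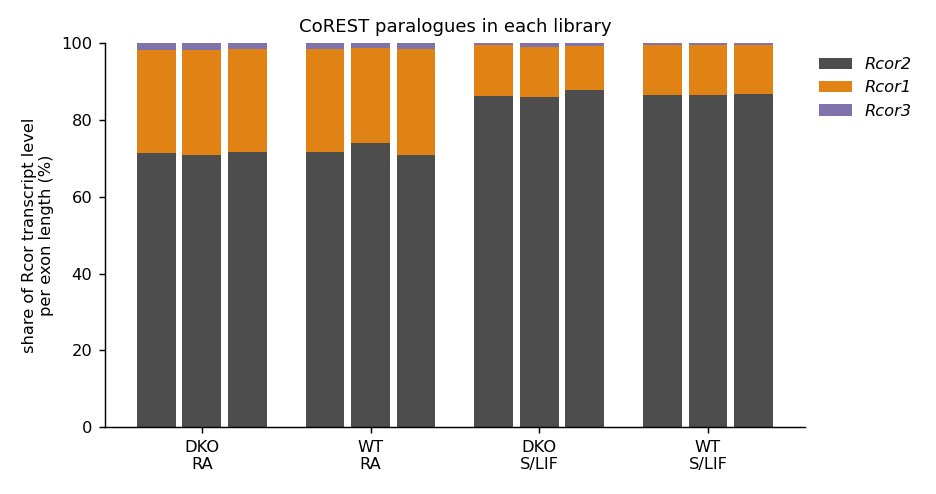
Share of Rcor2, Rcor1 and Rcor3 in their summed level per kilobase of exon (vertical axis, percent), 1 stacked bar per library, for DKO after RA, WT after RA, DKO in serum/LIF and WT in serum/LIF (S/LIF). The Rcor2 share lies between 70.8% and 74.0% in the 6 RA libraries and between 85.8% and 87.6% in the 6 serum/LIF libraries.

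The deacetylase genes Hdac1 and Hdac2 did not differ detectably between genotypes, and both fell under RA. Their proteins are shared with other corepressor complexes, among them NuRD and SIN3. The genes lie at chr4:129516104-129542646 on the minus strand (Hdac1) and chr10:36974544-37001888 on the plus strand (Hdac2). Hdac1 had 9425, 9449 and 9480 normalized counts in DKO and 9634, 9667 and 8918 in WT after RA, and 15589, 15689 and 15062 in DKO and 14876, 15875 and 15651 in WT in serum/LIF. The genotypes overlapped in both conditions. The log2 fold change of DKO over WT was 0.0079 ± 0.04 after RA (95% interval −0.07 to 0.09, adjusted p = 0.887) and −0.0016 ± 0.04 in serum/LIF (95% interval −0.08 to 0.08, adjusted p = 0.983). Reads of Hdac1 are uncertain in origin, since copies of the gene, not analysed here, match its longest transcript of 2038 bases. The processed pseudogenes Gm10093, AC125456.1 and Gm4864 match 1444, 1450 and 1469 bases at 99.4%, 96.3% and 94.6% identity. Gm21834, annotated as protein-coding, matches 453 bases at 90.1%. How reads with several matches were counted is not given.

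Hdac2 had 4132, 4389 and 4273 normalized counts in DKO and 4218, 4200 and 3809 in WT after RA, and 5267, 5496 and 5151 in DKO and 5357, 5314 and 5427 in WT in serum/LIF, again with overlap. DKO over WT was 0.07 ± 0.04 after RA (95% interval −0.03 to 0.16, adjusted p = 0.24) and −0.02 ± 0.04 in serum/LIF (95% interval −0.11 to 0.07, adjusted p = 0.81). Under RA, Hdac1 fell by 0.71 ± 0.04 in DKO (adjusted p = 1.44e-14) and by 0.72 ± 0.04 in WT (adjusted p = 8.91e-15). The size depends on the scaling: the Hdac1 change was −0.47 in DKO and −0.46 in WT with library totals, and −0.35 in both genotypes with quantile normalization, all called. Hdac2 fell by 0.31 ± 0.04 in DKO (adjusted p = 6.93e-07) and by 0.40 ± 0.04 in WT (adjusted p = 1.33e-08), and with library totals its change in DKO was −0.08 and not called (adjusted p = 0.0997), against −0.14 in WT, which was called. With quantile normalization the Hdac2 change was −0.16 in DKO and −0.22 in WT, both called. The count of Hdac1 over that of Hdac2 in the same library was 2.22 ± 0.0641 in DKO and 2.31 ± 0.0292 in WT after RA, against 2.91 ± 0.0534 in DKO and 2.88 ± 0.105 in WT in serum/LIF.

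The accessory subunits rose under RA, and 2 of these 3, Phf21a and Gse1, rose by more in DKO than in WT. Hmg20b encodes BRAF35, an HMG-box protein bound to the LSD1 and CoREST core, and lies at chr10:81346046-81350427 on the minus strand. It had 2092, 2054 and 2023 normalized counts in DKO and 2132, 2222 and 2097 in WT after RA, and 1295, 1230 and 1381 in DKO and 1193, 1213 and 1258 in WT in serum/LIF. After RA all DKO libraries lay below all WT libraries (54.5% of all genes were separated in that comparison), but the difference was not called (−0.06 ± 0.05, adjusted p = 0.371). In serum/LIF the groups overlapped (0.09 ± 0.05, adjusted p = 0.215). RA raised Hmg20b by 0.66 ± 0.05 in DKO (adjusted p = 7.56e-11) and by 0.82 ± 0.05 in WT (adjusted p = 1.15e-12).

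Phf21a, the gene of the H3K4 reader BHC80, was higher in DKO than in WT after RA, and the genotypes overlapped in serum/LIF. It lies at chr2:92184182-92364666 on the plus strand. Its libraries had 2821, 2953 and 2837 normalized counts in DKO and 2311, 2281 and 2430 in WT after RA, with a clear gap between the groups. Of all genes, 54.5% were separated in that comparison. In serum/LIF they had 1712, 1891 and 1597 in DKO and 1743, 1891 and 1827 in WT, which overlap. DKO was at 1.23 times WT after RA (log2 0.29 ± 0.06, adjusted p = 0.000185), against a log2 value of −0.07 ± 0.06 in serum/LIF (adjusted p = 0.349). The genotype effect after RA exceeded that in serum/LIF by 0.37 ± 0.08 (adjusted p = 0.00112). RA raised Phf21a to 1.66 times its serum/LIF mean in DKO and 1.29 times in WT (log2 0.73 ± 0.06 and 0.36 ± 0.06), and with library totals these changes were 0.96 in DKO and 0.62 in WT.

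Gse1 had the largest change of the 9 members in each RA comparison and in DKO against WT after RA. The listed transcript lies at chr8:120537409-120581383 on the plus strand. Its libraries had 20811, 21328 and 21281 normalized counts in DKO after RA, against 15040, 14885 and 15895 in WT after RA. In serum/LIF they had 5035, 4551 and 5057 in DKO and 5217, 5274 and 4875 in WT. The RA groups lay far apart, beside 54.5% of all genes separated after RA, and the serum/LIF groups overlapped. DKO was at 1.38 times WT after RA (log2 0.47 ± 0.04, adjusted p = 4.29e-09), and 26.6% of all genes had a larger absolute change in that comparison. In serum/LIF the log2 value was −0.07 ± 0.04 (adjusted p = 0.223, 95% interval −0.16 to 0.02).

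RA raised Gse1 to 4.33 times its serum/LIF mean in DKO (log2 2.12 ± 0.04, adjusted p = 1.14e-22) and to 2.98 times in WT (log2 1.58 ± 0.04, adjusted p = 2.08e-20). The difference between these responses was 0.54 ± 0.06 (adjusted p = 2.66e-07). Without replicate 2 of WT after RA, the library that stood apart in repeat and gene reads, the genotype difference after RA was 0.45 (adjusted p = 3.1e-08) for Gse1 and 0.28 (adjusted p = 0.00114) for Phf21a. The genotype call after RA and the call of the difference between conditions were kept for both genes in all alternatives run.

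Part of the Gse1 exons overlap those of Gins2, a DNA replication gene on the other strand, by up to 2758 bases in the annotation. Gins2 had 2540, 2633 and 2463 normalized counts in DKO and 2864, 2895 and 2817 in WT after RA, and 2414, 2405 and 2562 in DKO and 2100, 2211 and 2497 in WT in serum/LIF. It was lower in DKO after RA (−0.17 ± 0.06, adjusted p = 0.0166). Reads of the shared stretch cannot be told apart without strand, and their part in the Gse1 values was not tested.

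**Figure D3:**
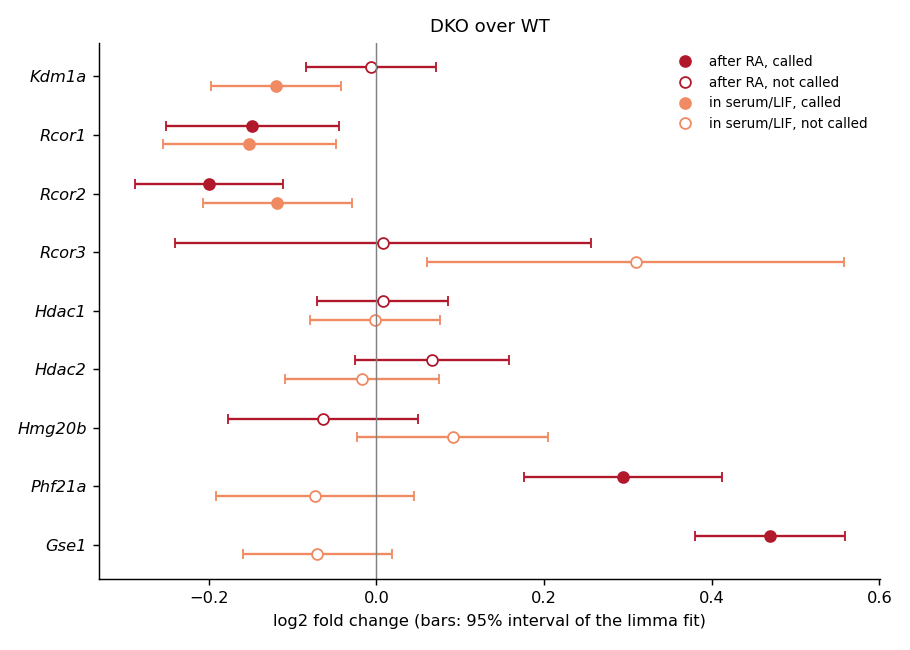
Log2 fold change of DKO over WT (horizontal axis) for the 9 CoREST subunits after RA (dark red) and in serum/LIF (orange). Bars are the 95% interval of the limma fit over 3 libraries per group, and filled points are called at an adjusted p under 0.05. Gse1 (0.47) and Phf21a (0.29) are the members called higher, both after RA, and Rcor1 and Rcor2 are called lower in both conditions.

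**Figure D4:**
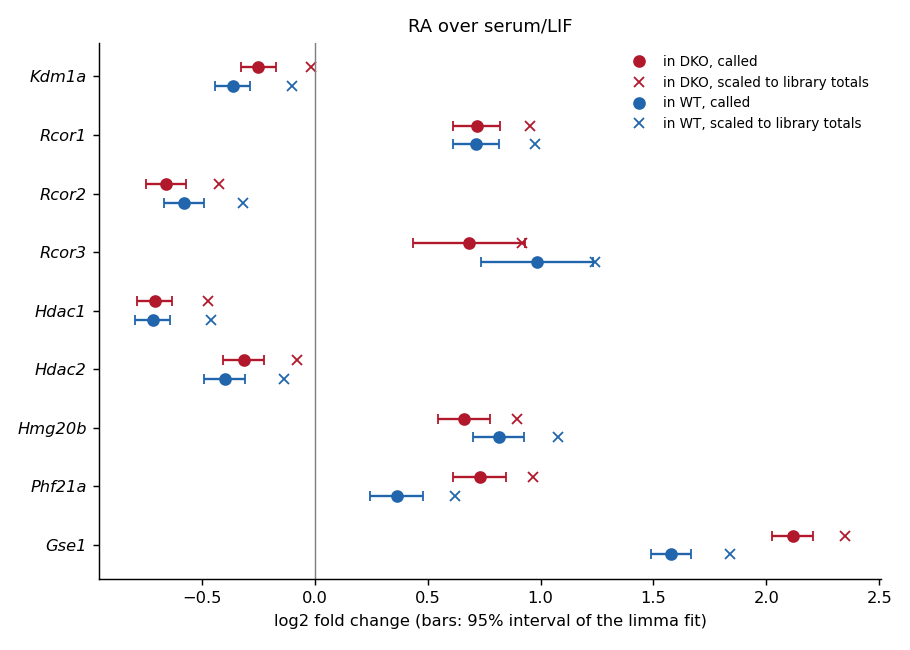
Log2 fold change of RA over serum/LIF (horizontal axis) for the 9 CoREST subunits in DKO (red) and WT (blue), with the 95% interval of the limma fit over 3 libraries per group; all points are called. Crosses give the change when values are scaled to library totals, which moves every member up, leaves Kdm1a at −0.02 and Hdac2 at −0.08 in DKO (neither called) and changes no direction, while quantile normalization, not drawn, turns Kdm1a in DKO to 0.02.

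Among the members, the order of the RNA levels changed with RA mainly through Gse1. Per kilobase of exon, Hdac1 was the highest member in every group, at 2744 ± 8.08 normalized counts per kb in DKO and 2730 ± 123 in WT after RA, and 4484 ± 97.8 in DKO and 4490 ± 152 in WT in serum/LIF. The part of reads from Hdac1 copies in these values was not tested. Gse1 came second after RA, at 2042 ± 27.6 in DKO and 1476 ± 52.5 in WT, and below Hdac2 in serum/LIF, at 472 ± 27.6 in DKO and 495 ± 20.8 in WT. In WT after RA it did not differ from Kdm1a, at 1474 ± 24.7, beyond the spread between libraries by this length, whereas per kilobase of the longest transcript Gse1, at 2143 ± 76.3, stood below Kdm1a, at 2521 ± 42.3. In DKO after RA, Gse1 was second by either length. Rcor2 came second in serum/LIF, at 1882 ± 96.1 in DKO and 2041 ± 25.2 in WT, just above Kdm1a, at 1745 ± 21.0 and 1896 ± 53.7. By the longest transcript instead, Kdm1a stood above Rcor2 in serum/LIF, so the order of that pair rests on the length used. Rcor3 was the lowest in every group, at 30.3 ± 2.55 in DKO and 30.1 ± 0.800 in WT after RA, and 19.0 ± 3.02 in DKO and 15.2 ± 1.06 in WT in serum/LIF. Within a library, the count of Gse1 over that of Kdm1a was 2.78 ± 0.142 in DKO and 2.00 ± 0.106 in WT after RA, against 0.540 ± 0.0376 in DKO and 0.522 ± 0.0197 in WT in serum/LIF.

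The genes nearest in pattern were sought for Kdm1a, Rcor1, Rcor2 and Gse1, and as the nearest of many they are close by choice. Likeness was measured as the root mean square difference of centred log2 values over the 12 libraries, among 11608 genes with a mean of at least 100. Closest to Gse1 were Glis2, a zinc finger transcription factor gene (0.0766), Capn5 (0.0828), a calpain gene, and Reck (0.0910), which encodes a membrane-anchored protease inhibitor, beside 0.983 for the median gene. Glis2 had 6461 ± 291 normalized counts in DKO and 4505 ± 157 in WT after RA, and 1537 ± 132 in DKO and 1524 ± 45.1 in WT in serum/LIF. Closest to Kdm1a were Brpf1 (0.0324), which encodes a scaffold of histone acetyltransferases, the histone mRNA binding protein gene Slbp (0.0351) and the ubiquitin ligase gene Ube3c (0.0383). Closest to Rcor2 were the ribosomal protein gene Rps2 (0.0403), Chchd2 (0.0440) and the translation initiation factor gene Eif3d (0.0444). Closest to Rcor1 were Tmem179b (0.0561), Ttpal (0.0629) and the zinc transporter gene Slc39a9 (0.0655). For Kdm1a, the spread of the gene within its own groups was 0.0376, so its nearest genes differ from it by about as much as its replicates do. For Rcor2 this spread was 0.0491, above the distances of its nearest genes. For Gse1 (0.059) and Rcor1 (0.0460) it lay below the distances of theirs.

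Proteins that bind the complex, and the other complexes that use HDAC1 and HDAC2, are given beside the members. Over the 8 lists of such genes, 82 were tested, and DKO against WT had 25 higher and 14 lower after RA (47.6% called) and 16 higher and 8 lower in serum/LIF (29.3% called), beside 42.7% and 33.2% of all genes. Under RA, 40 of the 82 were higher and 32 lower in DKO, and 37 higher and 30 lower in WT. That is 87.8% called in DKO and 81.7% in WT, beside 78.3% and 80.6% of all genes. The CoREST-associated proteins had 4 higher and 3 lower of 15 after RA and likewise 4 and 3 in serum/LIF. Without replicate 2 of WT after RA, the library that stood apart in repeat and gene reads, the count after RA was 2 higher and 2 lower. Phf21b, the paralogue of Phf21a, moved the other way from it after RA, with 331 ± 43.2 normalized counts in DKO and 572 ± 19.0 in WT (log2 −0.80 ± 0.11, adjusted p = 2.69e-06). Ctbp2, which encodes the corepressor CtBP2, had 2650 ± 58.0 in DKO and 2419 ± 68.8 in WT after RA (0.13 ± 0.04, adjusted p = 0.00901), and 10071 ± 224 in DKO and 12118 ± 316 in WT in serum/LIF (−0.27 ± 0.04, adjusted p = 8.92e-06). The related Ctbp1 was higher in DKO in serum/LIF (0.14 ± 0.04, adjusted p = 0.0214). Zeb2, a zinc finger repressor gene, was at 834 ± 81.9 in DKO and 458 ± 44.3 in WT in serum/LIF (0.86 ± 0.09, adjusted p = 3.1e-08). Rreb1 was higher in DKO after RA (0.24 ± 0.07, adjusted p = 0.00686) and in serum/LIF (0.28 ± 0.07, adjusted p = 0.00325). Zfp217 was lower in DKO after RA (−0.16 ± 0.05, adjusted p = 0.00739).

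Factors that recruit CoREST to DNA had 3 higher and 2 lower of 11 tested after RA, and 1 higher and 1 lower in serum/LIF. Over all genes, 22.0% were called higher and 20.7% lower after RA, and 17.8% and 15.4% in serum/LIF. Rest, the repressor of neuronal genes, had 3000 ± 37.2 normalized counts in DKO and 2447 ± 343 in WT after RA (log2 0.30 ± 0.06, adjusted p = 0.000606), and was lower in DKO in serum/LIF (−0.19 ± 0.06, adjusted p = 0.0276). RA lowered it in both genotypes, by 1.86 ± 0.06 in DKO and 2.35 ± 0.06 in WT. Prdm1, the gene of the repressor BLIMP1, had 453 ± 23.6 in DKO and 141 ± 16.2 in WT after RA (1.68 ± 0.11, adjusted p = 1.69e-11). Hic1 was higher in DKO after RA as well (0.84 ± 0.14, adjusted p = 2.25e-05). Insm1, a zinc finger gene of neuroendocrine and neuronal progenitors, was lower, with 166 ± 4.09 in DKO and 427 ± 26.7 in WT after RA (−1.35 ± 0.15, adjusted p = 6.72e-08). Snai1 was higher in DKO in serum/LIF, at 93.2 ± 15.6 against 41.7 ± 20.3 in WT (1.28 ± 0.28, adjusted p = 0.00114).

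The counts of the next lists stand beside 22.0% of all genes called higher and 20.7% lower after RA. In serum/LIF these shares were 17.8% and 15.4%. Of 13 NuRD genes, 3 were higher and 4 lower in DKO after RA, and 3 higher and 1 lower in serum/LIF. The remodeller gene Chd3 was higher in both (0.79 ± 0.05 after RA, adjusted p = 8.12e-12, and 0.48 ± 0.05 in serum/LIF, adjusted p = 5.33e-08). The histone chaperone gene Rbbp7 was lower after RA (−0.32 ± 0.03, adjusted p = 3.54e-08) and higher in serum/LIF (0.17 ± 0.03, adjusted p = 0.0004). Mbd2, which encodes a reader of methylated DNA, was lower in serum/LIF (−0.41 ± 0.06, adjusted p = 1.91e-05). Of 16 SIN3 genes, 2 were higher and 2 lower after RA and 2 higher and 1 lower in serum/LIF, with Sap18 lower after RA (−0.39 ± 0.06, adjusted p = 5.96e-06) and Sinhcaf higher after RA (0.23 ± 0.04, adjusted p = 7.7e-05). Of the 8 MiDAC and MIER genes, which encode other scaffolds for HDAC1 and HDAC2, 5 were higher and 0 lower after RA (median 0.23), among them Rere (0.30 ± 0.05, adjusted p = 3.08e-05) and Mideas (0.25 ± 0.05, adjusted p = 0.000704), and 1 was higher in serum/LIF, Mier2 (0.18 ± 0.05, adjusted p = 0.0102).

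Among enzymes outside the complex, the NCoR and SMRT genes had 2 higher and 2 lower of 6 after RA and 1 and 1 in serum/LIF. For these lists too, all genes had 22.0% higher and 20.7% lower after RA, and 17.8% and 15.4% in serum/LIF. Hdac3, their deacetylase, was lower in DKO in both conditions, at −0.24 ± 0.05 after RA (adjusted p = 0.000206) and −0.15 ± 0.05 in serum/LIF (adjusted p = 0.0146), unlike Hdac1 and Hdac2, which were not called. Of the 8 other deacetylase genes, 4 were higher and 1 lower in DKO after RA and 3 higher and 0 lower in serum/LIF. Hdac7 had 1433 ± 23.5 in DKO and 1167 ± 41.2 in WT after RA (0.30 ± 0.08, adjusted p = 0.00263), and 487 ± 26.0 in DKO and 208 ± 8.56 in WT in serum/LIF (1.22 ± 0.08, adjusted p = 5.34e-12). Of the 5 other H3K4 demethylase genes, 2 were higher and 0 lower after RA and 1 higher and 1 lower in serum/LIF. Kdm5b was higher in DKO after RA (0.40 ± 0.04, adjusted p = 3.83e-09), and the LSD1 paralogue Kdm1b was lower in DKO in serum/LIF (−0.19 ± 0.07, adjusted p = 0.0343).

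**Figure D5:**
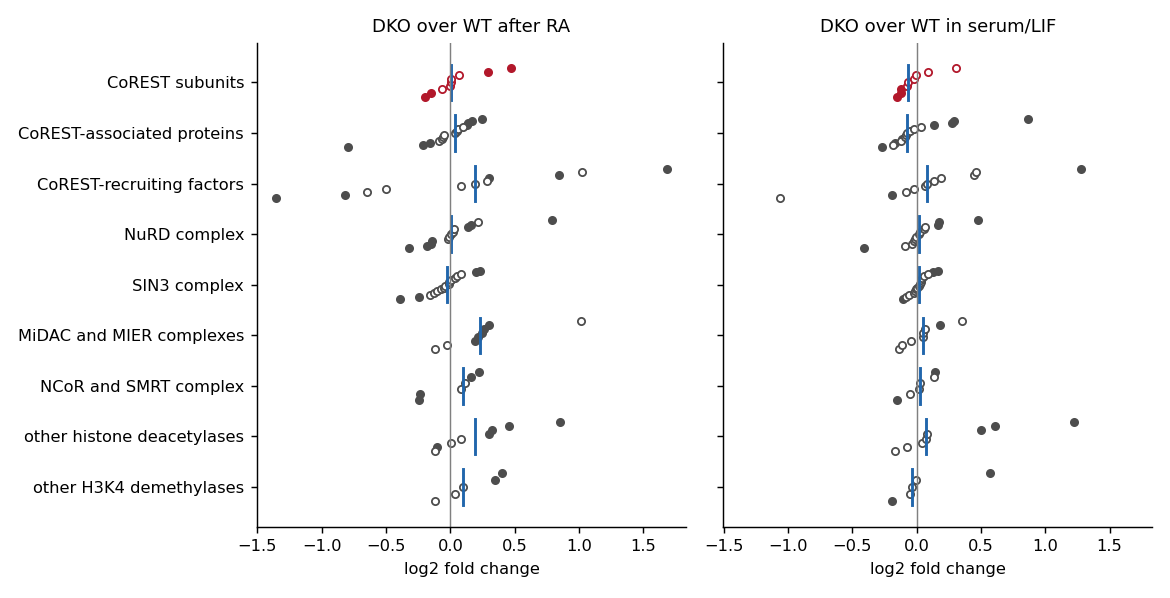
Log2 fold change of DKO over WT (horizontal axes) after RA (left) and in serum/LIF (right) for the tested genes of 9 lists, 1 point per gene, filled where called. Red points are the CoREST subunits and blue lines the median of each list. The CoREST subunits span −0.20 to 0.47 after RA and −0.15 to 0.31 in serum/LIF.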

How the data were processed

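Total RNA of 12 libraries (4 groups of 3) was sequenced as paired-end reads, per the labels' protocols. Tools listed in the submitters' processing notes are DESeq2 1.44.0, featureCounts (Subread 2.0.6), STAR 2.7.11b and Trim Galore 0.6.10, with the build mm10. The deposited library columns hold a signal, whole reads divided by a size factor of the library: 100% of values were within 0.01 of a whole read. The authors' deposited log2 fold changes and adjusted p-values served to count the authors' own calls. How strand and reads with several matches were handled is not known here. The labels call the replicates biological without naming separate cultures, so p-values measure the spread between these libraries.

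Values were taken as log2(value + 1), and the filter asked for a value of 10 in 3 libraries, which 15750 of 17901 genes passed. limma 3.58.1 in R 4.3.3 (trend and robust) was fitted to all 12 libraries with 4 group means, with Benjamini-Hochberg adjustment over all genes and a threshold of 0.05. In simulated data the test recovered large known changes but missed many of the smallest simulated, which were still larger than the members' called changes in serum/LIF; changes were simulated in DKO against WT in serum/LIF alone. The test of the difference between conditions subtracts the DKO effect in serum/LIF from the one after RA. edgeR 4.0.16 and DESeq2 1.42.0 were run on the recovered reads as alternatives, 24 settings in all. Exon lengths, overlaps and copies (blastn 2.17.0) came from GENCODE on GRCm38, and promoter sequences from RefSeq, which matched 8 of the 9 members; Hdac1 has no sequence here. Named genes were the 9 members and, for each other complex list and genotype comparison, up to 4 called genes with the smallest adjusted p, of which the text gives part. The members, lists and tests were chosen with earlier results of these data known.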

Additional observations from a re-analysis of the deposited data

Results flagged for a closer look

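The genotype effect differed between conditions for 2 members, by the test of the difference itself. For Gse1, the log2 change of DKO over WT was 0.47 ± 0.04 after RA and −0.07 ± 0.04 in serum/LIF, a difference of 0.54 ± 0.06 (limma, adjusted p = 2.66e-07). For Phf21a it was 0.29 ± 0.06 after RA and −0.07 ± 0.06 in serum/LIF, a difference of 0.37 ± 0.08 (limma, adjusted p = 0.00112). In both genes the 3 DKO libraries lay above the 3 WT libraries after RA and overlapped with them in serum/LIF. Of all genes, 54.5% were separated in DKO against WT after RA. The difference between conditions was called for 30.8% of all genes. After RA the summed ES cell markers were also higher in DKO (10899 to 11605 normalized counts, against 5582 to 6031 in WT), as were the summed fibroblast markers (63848 to 66494, against 50239 to 51867 in WT), of which 5 of 10 were called higher and the other 5 had lower means in DKO and were not called. The part of these in the 2 results was not tested.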

How the results depend on the processing

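Calls of Gse1 and Phf21a after RA and for the difference between conditions, and of Rcor2 after RA, were kept in every alternative run, and the counts over all genes stayed within 1.5 times. The count of members called in serum/LIF was 3, all lower. It became 4, with Rcor3 higher, with log2(value + 5), a filter value of 50, TMM factors, edgeR or DESeq2. With library totals it was 1 higher (Rcor3) and 2 lower. It became 2, both lower, with limma without trend and robust, with a replicate block and with the compared groups alone. With quantile normalization it became 1 (Rcor1 lower). Leaving out 1 library gave 1 to 3 members there, with 1 (Rcor3 higher) without replicate 2 of WT in serum/LIF. Scaling to library totals changed the split of genes called under RA to 7857 higher and 4626 lower in DKO and 8135 higher and 4766 lower in WT, from 6326 and 6014 in DKO and 6515 and 6180 in WT. Under RA, the size of the called changes of Hdac1, Hdac2, Rcor2, Rcor3 and Phf21a moved by over 1.5 times in at least 1 genotype with library totals or quantile normalization, with no change of direction. The cause of these changes was not tested.

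Of the member values called with the authors' size factors, Kdm1a under RA in DKO (−0.25) changed direction, to 0.019 with quantile normalization. The other reversals are of uncalled values near 0. In DKO against WT, library totals gave 0.016 for Hdac1 and 0.00011 for Hdac2 in serum/LIF, and −0.0011 for Rcor3 and −0.0013 for Hdac1 after RA. For the difference between conditions, Rcor1 became −0.023 with library totals, −0.00054 with TMM factors, −0.026 with quantile normalization and −0.0026 with edgeR, and Hdac1 −0.017 with library totals. Leaving out 1 library gave −0.029 to 0.017 for Hdac1 and −0.043 to 0.0039 for Hdac2 in serum/LIF. After RA it gave −0.034 to 0.021 for Kdm1a, −0.046 to 0.074 for Rcor3 and −0.030 to 0.028 for Hdac1. For the difference between conditions it gave −0.031 to 0.033 for Rcor1 and −0.028 to 0.037 for Hdac1. Rcor1 in serum/LIF was also not called when the compared groups were fitted alone (adjusted p = 0.0521).

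Same-numbered libraries did not deviate together (correlations of −0.0324 to 0.0508), so the numbers were not taken as pairs. With a replicate block, 2 members were called in serum/LIF, Kdm1a and Rcor1, with Rcor2 at −0.12 (adjusted p = 0.0527), and no other member's call changed. At 187 to 484 reads per library, depth limits Rcor3 the most.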
